A study of Mus musculus with 2040 samples.

Results

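Aqp4, Slc4a4, Atp1b2, Mlc1, Hepacam and Dag1 are 6 genes whose proteins move water and ions across the astrocyte membrane or hold the transporters in place at the endfoot. They were chosen by name, as 6 of the 32245 gene columns of a table of cells by genes, and their levels were compared between tissues, between astrocytes with much and little Gfap, and against oligodendrocytes and neurons. Each of the 2040 libraries was 1 cell, sorted for SYFP2 (a yellow fluorescent protein) from 1 of 47 C57Bl/6J mice. Every mouse had been given 1 of 30 adeno-associated virus (AAV) vectors in which an enhancer or promoter drives the reporter, so all groups, including those used as a comparison, carry a virus and its reporter, and no uninjected mouse was compared. The labels give no age. Cells came from VISp (primary visual cortex in the usual mouse atlas code, 1785 cells), MB/HB (midbrain and hindbrain, 174 cells) and CBX (cerebellar cortex, 81 cells).

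Astrocytes wrap brain capillaries with endfeet, and the membrane that faces the vessel is packed with the water channel aquaporin-4. Dystroglycan, the product of Dag1, ties that membrane to the laminin and agrin of the basement membrane and, through dystrophin inside the cell, to aquaporin-4. Slc4a4 encodes a sodium bicarbonate cotransporter that sets astrocyte pH. Atp1b2 encodes the beta-2 subunit of the sodium pump, which clears potassium after neuronal firing. Mlc1 encodes a membrane protein that, with the adhesion molecule made from Hepacam, is needed for astrocyte volume control, and loss of either causes a leukodystrophy with swollen white matter in people.

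On mm10 (coordinates and gene models from GENCODE vM21, the same build), Aqp4 lies at chr18:15389496-15410982 on the minus strand and Slc4a4 at chr5:88886818-89239653 on the plus strand. Atp1b2 lies at chr11:69599736-69605942 on the minus strand, and Mlc1 at chr15:88955884-88979007 on the minus strand. Hepacam and Dag1 are both on chromosome 9, at chr9:37367351-37386575 (plus strand) and chr9:108204634-108263958 (minus strand). No exon of the 6 overlaps an exon of another annotated gene. Merged exons come to 6233 bases for Aqp4, 10815 for Slc4a4, 4085 for Atp1b2, 2801 for Mlc1, 3347 for Hepacam and 6357 for Dag1. Values are CPM, the reads of a gene scaled to a fixed total of reads per cell, and a level is the mean CPM over the cells of 1 class in 1 mouse.

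Cell classes were rebuilt by clustering without the 6 genes and named from marker lists, which gave 968 astrocyte-like, 973 oligodendrocyte-like and 99 neuron-like cells. Mice with at least 10 cells of a class were used as replicates. These were 19 VISp mice of 12 vectors, 4 MB/HB mice (2 given eHGT_381h and 2 given MGT_E160m) and 2 CBX mice (both eHGT_375m) for astrocytes, 22 VISp mice for oligodendrocytes, and 3 VISp mice and 1 MB/HB mouse for neurons. Cells held between 57873 and 1455022 reads (median 434102), and median depth was 431572, 410437 and 375425 in VISp, MB/HB and CBX astrocytes. All 12 astrocyte markers were detected in the class in each tissue, at a summed level of 35295 to 46158 CPM in VISp, 31158 to 41514 in MB/HB and 40280 to 41929 in CBX. Single markers differed by the test described below. Of the 12, 1 was higher and 4 lower in MB/HB than in VISp, and 3 were higher and 6 lower in CBX. RNA of another class, by a rule on marker lists, was carried by 26 of 739 astrocyte-like cells in VISp, 12 of 148 in MB/HB and 6 of 81 in CBX. The summed oligodendrocyte markers in astrocytes were 171 to 1311 CPM in VISp mice, 1092 to 6262 in MB/HB and 1935 to 2224 in CBX, and the endothelial markers 1.18 to 26.6, 6.46 to 1250 and 14.4 to 20.2 CPM. Of the 12 oligodendrocyte markers, 8 were higher in MB/HB than in VISp astrocytes by the test described below, as were 6 of 7 endothelial markers. Over all genes 11.8% were called in MB/HB against VISp, 5.91% as higher, and 11.6% in CBX against VISp. Summed markers of vascular leptomeningeal cells (VLMC) were 0.192 to 13.8 CPM in VISp, 29.3 to 70.6 in MB/HB and 49.2 to 57.98 in CBX, with Col1a2 called higher in both tissues. In CBX 2 of the oligodendrocyte markers were at 0 in both mice. In VISp and MB/HB none of the 12 was at 0 in all mice. Neuron-like cells of the 3 VISp mice, given eHGT_374m or MBP_promoter, held 2380 to 3505 CPM of summed GABAergic neuron markers. Their glutamatergic neuron markers summed to 49.8 to 426 CPM. The MB/HB mouse, given eHGT_381h, had 657 and 434 CPM. Levels given for neurons are those of these sorted cells, not of neurons in general.

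Aqp4 was an astrocyte gene in these cells. In VISp astrocytes its lowest, median and highest mouse stood at 352, 567 and 920 CPM. Oligodendrocyte-like cells of the same tissue lay between 0 and 22.7 CPM, with 7 of 22 mice at 0, and of the 4 mice with neuron-like cells 3 were at 0 and the other at 1.83 CPM. Slc4a4 followed the same order, with 415, 615 and 938 CPM in VISp astrocytes, 0 to 19.8 in oligodendrocytes and 0.289 to 14.2 in neurons. Mlc1 stood at 534, 975 and 1568 CPM in VISp astrocytes, against 0.304 to 61.6 in oligodendrocytes and 0 to 20.1 in neurons. For each of these 3 genes every one of the 25 astrocyte mice was above every oligodendrocyte mouse and every neuron mouse.

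Atp1b2 separated the classes into 3 steps. VISp astrocytes had 621, 755 and 1056 CPM (lowest, median, highest), the 4 neuron mice 38.4, 52.7, 61.1 and 78.4, and oligodendrocytes 1.47 to 31.03. It was the only one of the 6 with every neuron mouse above every oligodendrocyte mouse, an order that 17.7% of the 3565 genes measured in both classes also showed. Reads of Atp1b2 were found in 94.0% of the 84 VISp neuron-like cells (exact 95% interval 86.7% to 98.0%) but in 20.1% of 962 VISp oligodendrocyte-like cells (17.6% to 22.7%).

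Hepacam was the exception, with levels in oligodendrocytes close to those in astrocytes. Its level was 352, 489 and 706 CPM in VISp astrocytes (514 ± 101, SD, n = 19) and 253, 368 and 541 CPM in VISp oligodendrocytes (380 ± 70.8, SD, n = 22). The ranges overlap, and the ratio of the 2 class means over all mice was 1.33. Neurons had 0 to 6.58 CPM. Of VISp cells, 96.3% of the astrocytes and 96.5% of the oligodendrocytes held a Hepacam read. Its partner Mlc1 was 36.9 times higher in astrocytes than in oligodendrocytes by the same ratio of means.

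Dag1 was low in astrocytes, at 48.7, 126 and 205 CPM in VISp. Oligodendrocytes had 0.248 to 48.8 CPM and neurons 3.77 to 21.98. The lowest astrocyte mouse and the highest oligodendrocyte mouse thus touched, while all other astrocyte mice lay above. Over all mice the ratio of means was 7.02 against oligodendrocytes and 9.06 against neurons, where the ratios of Aqp4 and Slc4a4 against oligodendrocytes were 127 and 142.

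Of the 6 genes, 4 had every astrocyte mouse above every oligodendrocyte mouse, an order found in 4.44% of 3785 panel genes, and all 6 had every astrocyte mouse above every neuron mouse, found in 7.38% of 3783. These class levels are a description without a test, since the classes were made from the same cells. They show Aqp4, Slc4a4, Atp1b2 and Mlc1 as astrocyte genes in this comparison, and Hepacam as shared with oligodendrocytes.

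**Figure D1:**
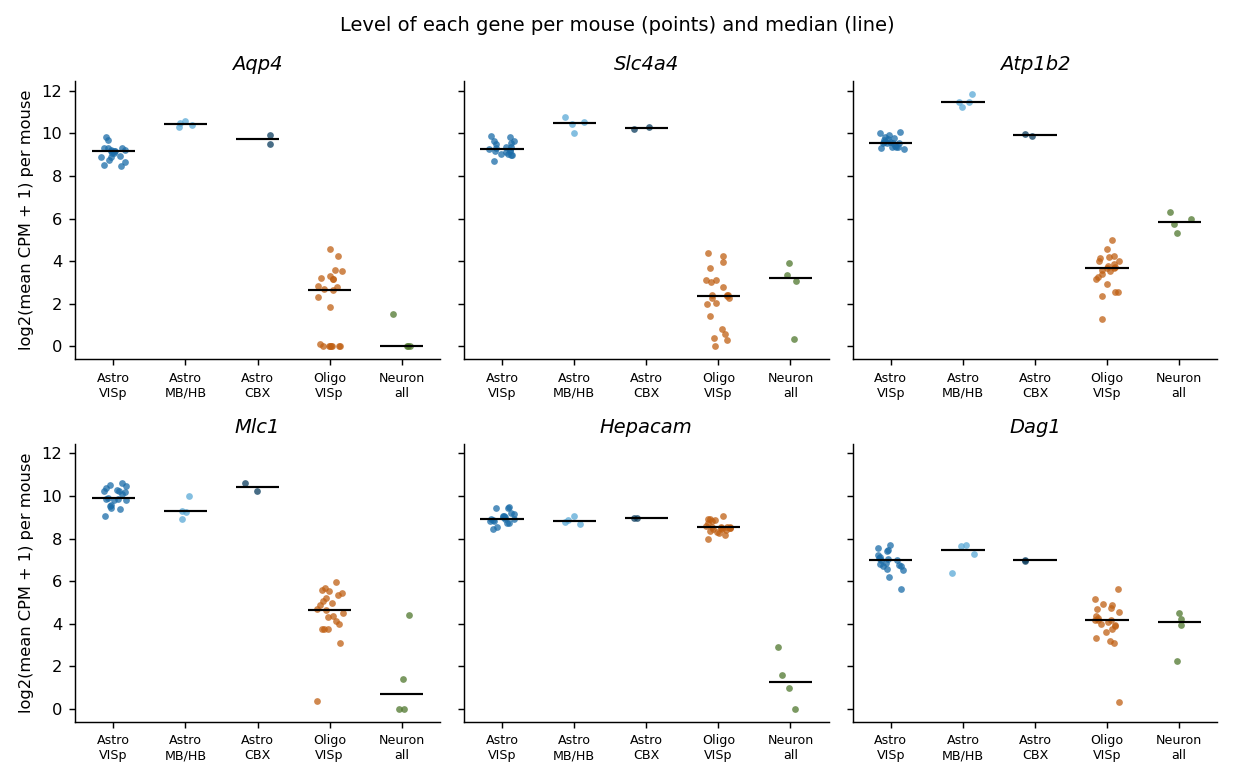
Mean CPM per mouse (log2 axis of CPM + 1) of the 6 genes in astrocyte-like, oligodendrocyte-like and neuron-like cells; each point is 1 mouse, lines are medians, and astrocytes are split by tissue. The astrocyte points of Aqp4, Slc4a4, Atp1b2 and Mlc1 lie above all others, Hepacam overlaps between both glial classes, and Atp1b2 is highest in the 4 MB/HB mice.

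The share of cells with at least 1 read gave the same picture cell by cell. In VISp astrocytes it was 91.3% for Aqp4, 97.2% for Slc4a4, 99.9% for Atp1b2 and 95.5% for Mlc1, but 68.1% for Dag1 (64.6% to 71.4%). VISp oligodendrocytes, at a median depth of 442264 reads against 431572 in astrocytes, held an Aqp4 read in 3.85% of cells (2.72% to 5.26%), and VISp neurons, at 431308 reads, in 10.7% (5.02% to 19.4%). Without the cells that carry RNA of another class these shares were 1.36% in oligodendrocytes and 1.43% in neurons, so most of the cells with an Aqp4 read outside the astrocyte class also held markers of another class. Hepacam in VISp neurons went from 17.9% to 4.29% in the same way. Dag1 was detected in 63.1% of VISp neurons and 24.2% of VISp oligodendrocytes. Its reads reached about as large a share of neurons as of astrocytes, though its level in neurons was lower in every mouse. These intervals cover counting error only, and cells of 1 mouse are not independent.

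**Figure D2:**
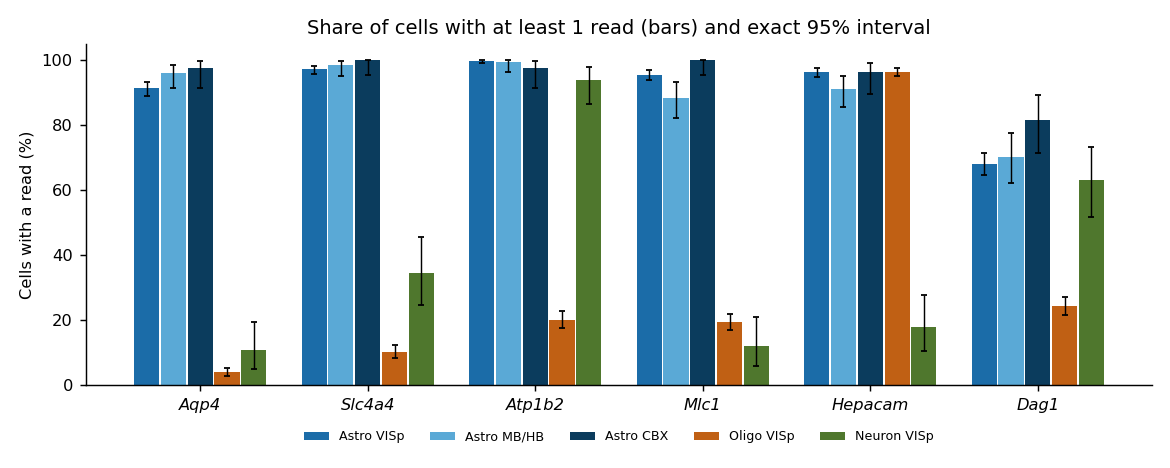
Percent of cells with at least 1 read of each gene in 3 classes of VISp and in astrocytes of MB/HB and CBX, with exact 95% intervals. Hepacam is near 96% in both VISp glial classes, while Aqp4 falls from 91.3% in astrocytes to 3.85% in oligodendrocytes.

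CPM grows with transcript length, so genes were set against each other per kilobase of merged exon. In VISp astrocytes the order of CPM per kilobase (mean ± SD, n = 19) was Mlc1 at 371 ± 105.55, Atp1b2 at 192 ± 32.005, Hepacam at 153 ± 30.1, Aqp4 at 89.7 ± 22.8, Slc4a4 at 59.7 ± 13.02 and Dag1 at 19.8 ± 6.17. The ranges over mice of Mlc1 (191 to 560) and Atp1b2 (152 to 258) overlap. By their means, Mlc1 and Dag1 lie further from their neighbours than the sum of the SDs. Atp1b2 and Hepacam, and Aqp4 and Slc4a4, lie within the sum of their SDs. These SDs ignore that all genes were measured in the same mice. The order within a mouse was not tested. In MB/HB (n = 4) Atp1b2 led at 722 ± 137, followed by Mlc1 at 246 ± 82.9, Aqp4 at 223 ± 19.02, Hepacam at 139 ± 15.3, Slc4a4 at 131 ± 27.5 and Dag1 at 25.3 ± 8.88. There Mlc1 and Aqp4 lie within the sum of their SDs, as do Hepacam and Slc4a4, with the same limit. In CBX (n = 2) the order of the means was that of VISp, from Mlc1 at 494 to Dag1 at 19.7. The 2 mice of Aqp4 (117 and 155) lie on either side of those of Hepacam (149 and 151), so that order did not hold in each mouse.

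Between tissues the astrocyte level was compared with limma on log2(mean CPM + 1) per mouse, with p-values adjusted (Benjamini-Hochberg) over 3638 panel genes and a threshold of 0.05. Since each vector was sorted from 1 tissue, tissue and vector cannot be told apart. Different clusters also hold the class in each tissue: clusters 1 and 2 hold 400 and 291 of the 739 VISp cells, cluster 4 holds 141 of the 148 in MB/HB, and cluster 8 holds 78 of the 81 in CBX. MB/HB astrocytes had more Aqp4, Slc4a4 and Atp1b2 than VISp astrocytes, CBX astrocytes had more Slc4a4, and Hepacam and Dag1 passed in no comparison of tissues. In MB/HB against VISp 3 of the 6 genes were called, all higher, beside 11.8% of all genes called in either direction and 5.91% called higher. The median log2 difference was 0.74 over the 6 and -0.05 over all genes. In CBX against VISp 1 of 6 was called beside 11.6% of all genes, and in CBX against MB/HB 2 of 6 beside 9.76%.

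Aqp4 stood at 1262 and 1330 CPM in the 2 MB/HB mice given eHGT_381h and at 1443 and 1529 in the 2 given MGT_E160m. All 4 lie above the highest of the 19 VISp mice, at 920 CPM. The fold was 2.55 (95% interval 1.99 to 3.28), or 1.35 on the log2 scale (SE 0.17, limma adjusted p = 8.62e-07). The CBX mice had 967 and 726 CPM, the first just above the VISp range and the second inside it. Their log2 difference from VISp was 0.63 (SE 0.24, limma adjusted p = 0.0872), and from MB/HB -0.73 (adjusted p = 0.0957), so neither passed. The first of these passed in 3 of 39 alternatives, and over all 39 it ran from 0.07 to 1.25. It passed when only Gfap-low cells were used (0.85, adjusted p = 0.018) and when logs were averaged over cells (1.25, adjusted p = 0.0482). It also passed without the VISp mouse with the most Gfap, which was 1 of 2 given the GFAP promoter (adjusted p = 0.0391).

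Slc4a4 was the gene of the set that passed in both tissues against VISp. The MB/HB mice had 1745 and 1032 CPM (eHGT_381h) and 1503 and 1374 CPM (MGT_E160m), and the CBX mice 1259 and 1189.7 CPM. All 6 values lie above the highest VISp mouse, at 938 CPM. MB/HB was 2.20 times VISp (1.74 to 2.77, log2 difference 1.14, SE 0.16, limma adjusted p = 4.73e-06). CBX was 1.94 times VISp (1.41 to 2.65, log2 difference 0.95, SE 0.22, limma adjusted p = 0.00259). With 1 CBX mouse left the difference was about as large, at 0.91 without the first (adjusted p = 0.0795) and 0.99 without the second (adjusted p = 0.0539), but it did not pass. CBX and MB/HB were not told apart, at a log2 difference of -0.18 (-0.71 to 0.35).

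Sort plates bear on both genes. VISp astrocytes of 5 mice were sorted on the same run of 4 plates as 3 of the MB/HB mice and 1 CBX mouse, and their Aqp4 was 531 to 920 CPM (median 637) against 352 to 644 (median 512) in the other 14 VISp mice. Their Slc4a4 was 580 to 909 CPM against 415 to 938. On these plates alone MB/HB stayed above VISp, by 1.07 on the log2 scale for Aqp4 (adjusted p = 0.00437) and 0.83 for Slc4a4 (adjusted p = 0.0191). The 3 plates that held all 3 tissues gave 8 VISp, 2 MB/HB and 2 CBX mice, and MB/HB was again above VISp for Aqp4 (0.86, adjusted p = 0.0297) and Slc4a4 (0.89, adjusted p = 0.0368), where the median over all genes was -0.33. CBX differed there from VISp by 0.37 for Aqp4 (adjusted p = 0.439) and 0.77 for Slc4a4 (adjusted p = 0.0724). On 2 of these plates, with 5 VISp mice and only 1 mouse each of MB/HB and CBX, the MB/HB differences were 0.94 for Aqp4 (adjusted p = 0.069) and 0.52 for Slc4a4 (adjusted p = 0.235), and the CBX difference of Slc4a4 was 0.72 (adjusted p = 0.148). On the run of 4 plates, with 1 CBX mouse, that difference was 0.71 (adjusted p = 0.235). A lone mouse was assumed to vary like the other groups, and those p-values rest on that assumption.

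Atp1b2 showed the widest tissue difference of the 6. Its MB/HB mice had 3722 and 2819 CPM (eHGT_381h) and 2875 and 2387 CPM (MGT_E160m), all more than the highest VISp mouse, at 1056. CBX mice stood at 952 and 986 CPM, inside the VISp range. The MB/HB level was 3.76 times that of VISp (3.10 to 4.55), or 1.91 on the log2 scale (SE 0.13, limma adjusted p = 2.58e-12), and it passed under all 39 alternatives, plates included, at 1.75 to 2.004. The difference of CBX from MB/HB was -1.59 (log2, SE 0.21, limma adjusted p = 1.96e-06), also called in 39 of 39. CBX did not pass against VISp (log2 difference 0.32, adjusted p = 0.314, fold interval 0.96 to 1.62).

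Of the other beta subunits, Atp1b1 moved the other way. Atp1b1, the beta subunit best known from neurons, had 305 to 605 CPM in VISp astrocytes but 4.84, 21.96, 0.0473 and 28.2 CPM in the 4 MB/HB mice and 65.6 and 21.7 in the 2 CBX mice. Neither tissue overlaps VISp, with a log2 difference from VISp of -5.85 for MB/HB (SE 0.42, limma adjusted p = 5.68e-12) and of -3.57 for CBX (SE 0.57, limma adjusted p = 2.89e-05). On the run of 4 plates the CBX difference was -4.35 (adjusted p = 0.0525). Neurons had 2320 to 3808 CPM of Atp1b1. Exons of Atp1b1 overlap those of Nme7 on the opposite strand, and whether the counts use strand is not given in the sources used here. Atp1b3, the third of the family, was highest in oligodendrocytes, at 1523 to 2601 CPM against 75.1 to 231 in VISp astrocytes, and in astrocytes it did not pass between MB/HB and VISp (log2 difference -0.20, adjusted p = 0.631) or CBX and VISp (0.32, adjusted p = 0.606).

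Per kilobase, Atp1b2 thus made up 47.8% ± 4.31 (SD, n = 19) of the 3 beta subunits in VISp astrocytes, 92.8% ± 2.40 (SD, n = 4) in MB/HB and 71.6% and 75.7% in the 2 CBX mice. These ranges do not overlap between tissues. In oligodendrocytes the share had a median of 0.33%, and in the 4 neuron mice it ran from 1.07% to 1.96%. Oligodendrocytes used Atp1b3 (888 ± 100 CPM per kilobase, SD, n = 22) and VISp neurons Atp1b1 (1091 ± 158, SD, n = 3) in its place.

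**Figure D3:**
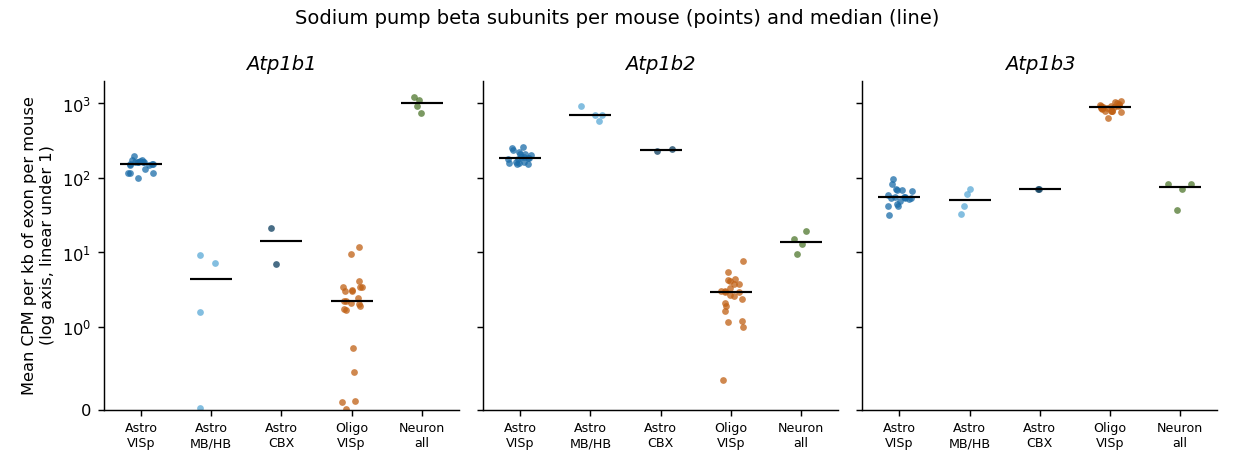
CPM per kilobase of merged exon of Atp1b1, Atp1b2 and Atp1b3 by mouse, for astrocytes of 3 tissues, VISp oligodendrocytes and neurons. By mean level each class has another leading beta subunit, but in VISp astrocytes the ranges of Atp1b2 (152 to 258) and Atp1b1 (99.1 to 196) overlap. In astrocytes the Atp1b2 share goes from 47.8% in VISp to 92.8% in MB/HB.

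The Fxyd genes encode small regulators of the pump. Fxyd1 and Fxyd7 were higher in CBX than in VISp astrocytes, with log2 differences of 1.68 (SE 0.27, limma adjusted p = 2.71e-05) and 3.62 (SE 0.80, limma adjusted p = 0.00157). In MB/HB neither passed against VISp, at 0.32 (adjusted p = 0.364) and -0.28 (adjusted p = 0.816).

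Mlc1 was lower in MB/HB than in CBX astrocytes. Its MB/HB mice had 1023, 626, 487 and 615 CPM and its CBX mice 1582 and 1187, so both CBX values lie above all 4 MB/HB values. The difference was 2.07-fold (1.27 to 3.36, log2 1.05, SE 0.34, limma adjusted p = 0.0437). That call held in 29 of 39 alternatives and was lost on 3 sets of shared plates, without either CBX mouse, without any of 3 MB/HB mice (the exception being the first eHGT_381h mouse), with no filter on low values (adjusted p = 0.0751) and on reads summed over cells (adjusted p = 0.0522). The difference stayed at 0.84 or more in all of them. Against VISp (534 to 1568 CPM) neither tissue passed, with log2 differences of -0.59 for MB/HB (SE 0.21, adjusted p = 0.0691) and 0.46 for CBX (SE 0.29, adjusted p = 0.402). Without the first eHGT_381h mouse, which had the 1023 CPM, the MB/HB difference was -0.80 (adjusted p = 0.0209), and on the run of 4 plates it was -0.90 (adjusted p = 0.0416). It passed in 5 of 39 alternatives.

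No tissue difference passed for Hepacam. The MB/HB mice had 533, 439, 416 and 467 CPM and the CBX mice 500.4 and 507, all inside the VISp range of 352 to 706. The fold against VISp was 0.92 in MB/HB (0.74 to 1.13, adjusted p = 0.655) and 0.998 in CBX (0.75 to 1.33, adjusted p = 0.996). Mlc1 and Hepacam, whose proteins work together, therefore differed in their pattern over classes, and only Mlc1 passed in a comparison of tissues, though the difference between the 2 genes was not tested.

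Among 6 further genes that act with Mlc1, 2 were higher and 1 lower in MB/HB than in VISp, beside 11.8% of all genes called. Kcnj10, the inward rectifier potassium channel of endfeet, went from 111 to 281 CPM in VISp to 751, 677, 408 and 578.5 in the 4 MB/HB mice, with no overlap (log2 difference 1.77, SE 0.22, limma adjusted p = 3.58e-07). Lrrc8a, a subunit of the volume-regulated anion channel, was higher by 1.51 (limma adjusted p = 0.0341), and Clcn2, a chloride channel that binds the Hepacam product, lower by -1.70 (limma adjusted p = 0.0199). Lrrc8a lost its call without any 1 of 3 MB/HB mice, though it stayed higher by 1.39 to 1.55, and with no filter on low values (adjusted p = 0.0584). Clcn2 lost its call without the second eHGT_381h mouse (-0.67, adjusted p = 0.349). In CBX, Gja1, the connexin-43 gene, was lower, at 1206 and 944 CPM against 1917 to 3893 in VISp (-1.36, SE 0.23, limma adjusted p = 7.81e-05).

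Dag1 did not pass between tissues. Its MB/HB mice had 199, 82.9, 155 and 205 CPM and its CBX mice 128 and 122, all within the VISp range of 48.7 to 205. Log2 differences from VISp were 0.34 in MB/HB (-0.20 to 0.87, adjusted p = 0.467) and 0.06 in CBX (-0.66 to 0.79, adjusted p = 0.951), which leaves room for a change of over 1.5-fold in either tissue. None of 8 enzymes and factors that build the laminin-binding sugar chain on dystroglycan passed in any tissue comparison, and the smallest limma adjusted p among them was 0.0927. Over all genes 11.8% passed in MB/HB against VISp, 11.6% in CBX against VISp and 9.76% in CBX against MB/HB.

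Of the 14 genes of the dystrophin complex and its basement membrane ligands, 2 were higher and 1 lower in MB/HB than in VISp astrocytes. Over all genes 11.8% were called in that comparison, and 11.6% in CBX against VISp. Dmd, which encodes dystrophin, had 191 to 544 CPM in VISp, 875, 564, 808 and 677 in the MB/HB mice and 148 and 169 in the CBX mice. The 3 tissues did not overlap, at 1.04 above VISp in MB/HB on the log2 scale (SE 0.17, limma adjusted p = 5.36e-05) and -1.14 in CBX against VISp (SE 0.23, limma adjusted p = 7.61e-04). Utrn, the gene of the related protein utrophin, had 30.8 to 99.1 CPM in VISp and 152, 104, 166 and 182 in MB/HB (1.27, SE 0.28, limma adjusted p = 0.00184). Sgcb, a sarcoglycan, was lower by -0.97 (limma adjusted p = 0.0123), but not without either MGT_E160m mouse. On 2 of the plates with all 3 tissues, with only 1 MB/HB mouse, the MB/HB differences were 0.62 for Dmd, 0.55 for Utrn and -0.39 for Sgcb. On the run of 4 plates that of Utrn was 1.08 and did not pass. On the 3 plates with all 3 tissues the MB/HB differences were 1.299 for Dmd (adjusted p = 0.0214), 1.07 for Utrn (adjusted p = 0.18) and -0.02 for Sgcb (adjusted p = 0.988). The CBX difference of Dmd kept its size but did not pass on those plates (-1.06, adjusted p = 0.0566), on the run of 4 plates (-1.12, adjusted p = 0.0857), with logs averaged over cells (-1.08, adjusted p = 0.0776) or without the first CBX mouse (-1.05, adjusted p = 0.0524). In CBX 1 gene of the list was higher than in VISp, Sgcd, the delta-sarcoglycan gene, at 58.8 and 68.9 CPM against 1.64 to 31.5 (3.07, SE 0.88, limma adjusted p = 0.0176). With 1 CBX mouse left that difference was 2.96 (adjusted p = 0.2) and 3.18 (adjusted p = 0.18).

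**Figure D4:**
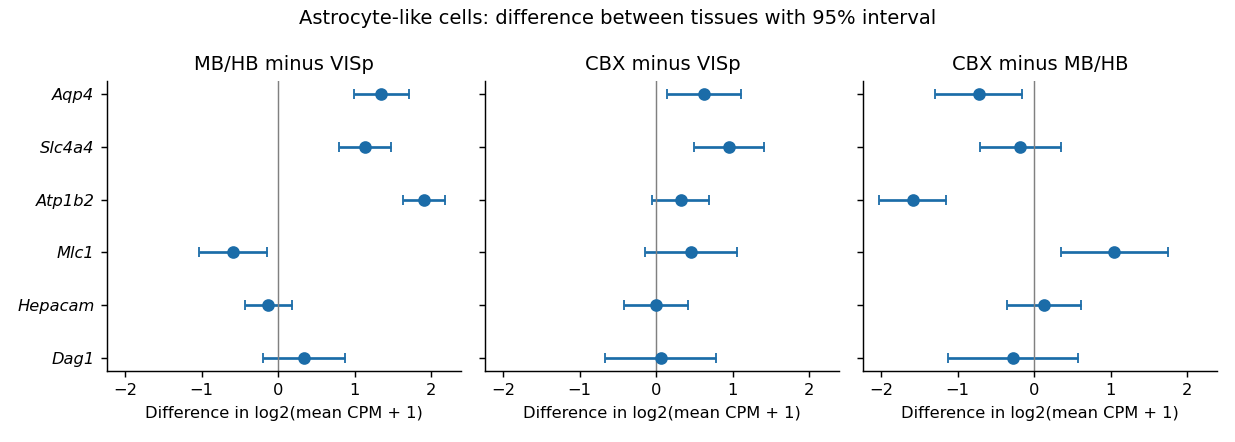
Log2 differences of astrocyte levels between tissues for the 6 genes, with unadjusted 95% intervals, from the fit described in the text. MB/HB minus VISp is above 1 for Aqp4, Slc4a4 and Atp1b2, and the interval of Hepacam includes 0 in all 3 comparisons.

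The markers of other cell types given above moved with the same comparison, and the 6 genes were therefore also compared without the cells that carry such RNA. The MB/HB differences from VISp were then 1.37 for Aqp4, 1.15 for Slc4a4 and 1.95 for Atp1b2, against 1.35, 1.14 and 1.91 with them. Leaving such cells out removed 12 of 148 MB/HB astrocytes, and the markers that remained were not summed. Whether RNA of other cell types adds to these differences was not tested. In VISp oligodendrocytes these 3 genes were at most 22.7, 19.8 and 31.03 CPM by mouse. Oligodendrocytes of MB/HB were too few for a level. Levels of Aqp4, Slc4a4 and Atp1b2 in endothelial cells were not measured here.

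Gfap, the intermediate filament gene that marks a subset of cortical astrocytes and rises in reactive ones, split the VISp astrocytes into 192 cells with at least 100 CPM, 466 with under 10 CPM and 81 between. The share of Gfap-high cells ran from 8.70% to 73.3% over the 19 mice, the highest in that GFAP promoter mouse. In 15 mice with at least 5 cells of each kind (180 high, 377 low), both kinds were compared within the mouse. None of the 6 genes passed. Over the panel limma called 0.0% of 3442 genes, with 399 at an unadjusted p under 0.05, and no alternative called any of the 6.

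Aqp4 was the nearest to a change. Its median over mice was 706 CPM in Gfap-high and 549 in Gfap-low cells, and it was higher in the Gfap-high cells of 12 of 15 mice. The fold was 1.26 (1.07 to 1.496), or 0.34 on the log2 scale (SE 0.11, unadjusted p = 0.0076, limma adjusted p = 0.335). With mice of at least 3 cells of each kind the difference was 0.11 (adjusted p = 0.69). Slc4a4 had medians of 646 and 619 CPM and was higher in Gfap-high cells of 5 of 15 mice (log2 difference -0.06, adjusted p = 0.807). Atp1b2, at 771.6 and 728 CPM, was higher in 8 of 15 mice (0.03, adjusted p = 0.864), and its fold interval of 0.92 to 1.14 is the narrowest of the 6. Mlc1 was higher in 9 of 15 (0.18, adjusted p = 0.558), Hepacam in 10 of 15 (0.14, adjusted p = 0.569) and Dag1 in 7 of 15 (0.07, adjusted p = 0.906, fold interval 0.77 to 1.43). The median over all panel genes was -0.32 with these cells and -0.02 when equal numbers of both kinds were drawn per mouse, where Aqp4 stood at 0.52 (adjusted p = 0.858). For the 6 genes the median was 0.11.

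Outside the cortex the split could only be described. In MB/HB 15 of 148 astrocytes were Gfap-high, in CBX 18 of 81. Aqp4 was higher in the Gfap-high cells of 1 of 3 MB/HB mice and 1 of 2 CBX mice, and Mlc1 in 2 of 3 and 2 of 2. MB/HB had the most Aqp4 of the 3 tissues, while its Gfap was 35.9, 57.5, 3.49 and 52.1 CPM against 19.8 to 489 in VISp (log2 difference -1.36, SE 0.55, adjusted p = 0.116). Restricted to Gfap-low cells, MB/HB was above VISp by 1.51 for Aqp4 (limma adjusted p = 3.96e-07) and 1.12 for Slc4a4 (limma adjusted p = 3.38e-05).

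**Figure D5:**
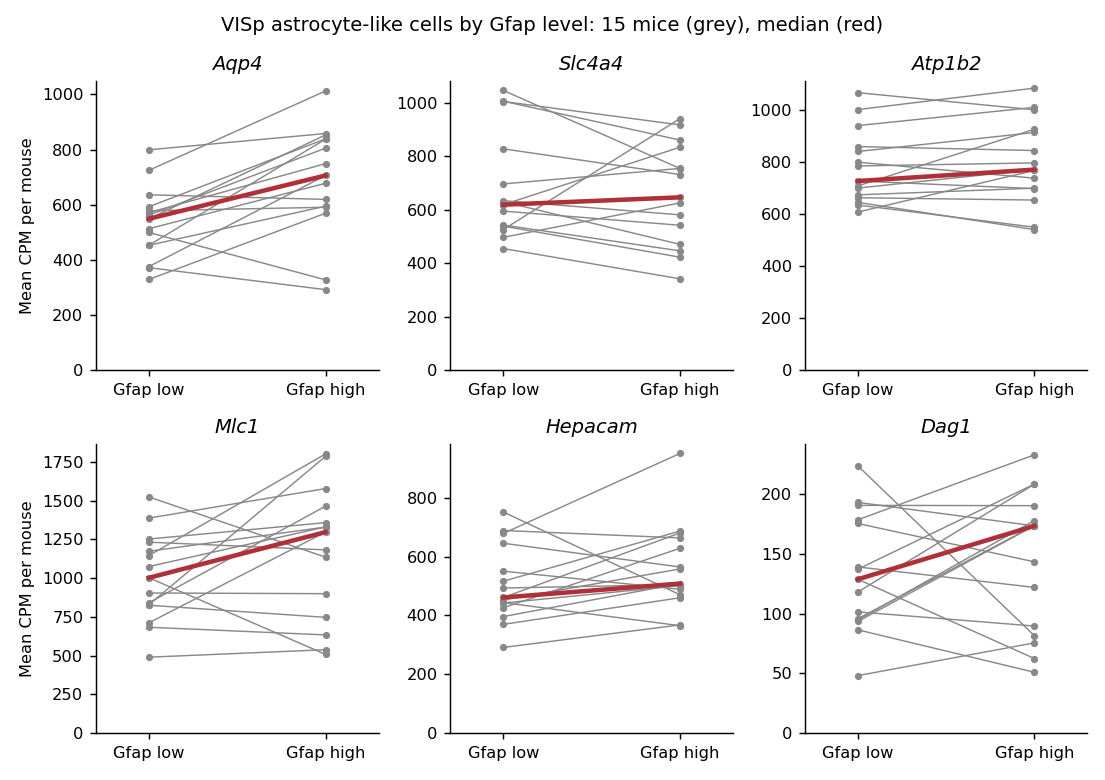
Mean CPM of the 6 genes in Gfap-low and Gfap-high VISp astrocytes of the same 15 mice, each line 1 mouse. Aqp4 goes up along 12 of 15 lines and Atp1b2 along 8 of 15, and none of the 6 passed the adjusted test.

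No difference between vectors was detected for these genes within VISp. Over 14 mice of 7 vectors with 2 mice each, limma's F-test gave unadjusted p-values from 0.0822 (Dag1) to 0.694 (Hepacam) and adjusted values of 0.957 to 0.959. It called 0.0% of 3391 genes, with 151 at an unadjusted p under 0.05. With 2 mice per vector, this test had little power: on simulated data it recovered 1% of genes changed 2-fold and 30% of those changed 4-fold.

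The 6 genes differed in how much they varied from cell to cell. In VISp astrocytes the coefficient of variation over the cells of a mouse (median over mice) was 0.49 for Atp1b2, 0.61 for Hepacam, 0.68 for Mlc1, 0.72 for Slc4a4, 0.79 for Aqp4 and 1.40 for Dag1. Over the 19 mouse means, where averaging over cells lowers it, it was 0.17, 0.20, 0.28, 0.22, 0.25 and 0.31 in the same order. Counting noise, relatively larger for genes with fewer reads, is part of the spread over cells, and its share was not measured. From cell to cell within mice the 6 genes hardly moved together, since the 15 correlations between pairs ran from -0.005 to 0.158 (median 0.057) over 739 cells, which share mice and plates and ran from 86943 to 1449329 reads in depth.

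Over 51 mouse-by-class levels, which mostly reflect the classes, the genes most like each member were looked for among 3879 panel genes (Pearson's r of log2 levels, a description). Aqp4 was nearest to Cldn10 (0.969), Ntsr2 (0.967) and Pla2g7 (0.959), of which Cldn10 and Ntsr2 are among the markers that named the class, and Slc4a4 to Pla2g7 (0.970), Cldn10 (0.957) and Fxyd1 (0.956). Atp1b2 was nearest to Ramp1 (0.972), Pla2g7 (0.962) and Lsamp (0.961), and Mlc1 was close to Prdx6 (0.958) and Abhd3 (0.951). Hepacam had other neighbours, S100a13 (0.970), Abhd4 (0.960) and Glul (0.939), the last being glutamine synthetase. Dag1 was least closely matched, with Cyp2d22 (0.896), Pla2g7 (0.888) and Dbx2 (0.883). Within the set, Aqp4 and Slc4a4 were the closest pair (0.955), and Hepacam stood apart, at 0.197 to 0.566 with the other 5.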

How the data were processed

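The deposited table holds 2040 single-cell libraries as rows and 32245 genes as columns, in CPM as deposited by the authors. Each row sums to 1000000, and all 9484843 positive values in the table are whole multiples of the step of their row (100%, within 0.001 reads), which gave the depth per cell. Reads were aligned with STAR to mm10, per the submitters' processing notes, and the counter, annotation, strand setting and normalization are not given in the sources used here. Some CPM columns are listed as other in the record of units, since values were scaled per cell and a gene column has no fixed total. A panel of 5199 columns was used, 148 from gene and marker lists and 5051 drawn at random, and 27046 columns were not used here.

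Cells were clustered with Leiden (leidenalg 0.10.2, resolution 1, 15 neighbours, 30 principal components, 2000 variable panel genes), without the 6 genes. Clusters were named from marker lists, with at least 3 markers detected. A call made in each cell gave the same class in 2026 of 2040 cells. A cell was taken to carry RNA of another class where more than 50% of that class's markers reached 10 CPM. The short GABAergic and glutamatergic neuron lists were not used for this. The naming rule and this rule were set after the files were seen. No doublet caller was run.

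Mice with at least 10 cells of a class were the replicates (at least 5 cells of each kind for Gfap), so p-values measure the spread between mice. Log2(mean CPM + 1) per mouse was fitted with limma 3.58.1 (R 4.3.3, trend, two-sided, Benjamini-Hochberg), on genes with a mean of at least 1 CPM in at least 2 mice. A fold is on that log2 scale and understates changes of low genes. The scripts were tested on simulated data, with changes put only into genes well above the floor. The comparison of MB/HB with VISp recovered 59% of genes changed 2-fold and 93% of those changed 4-fold, and the Gfap comparison 51% and 92%. The CBX comparisons, with 2 mice, were not scored. Simulated tissue values varied like VISp mice. Both Gfap kinds varied like Gfap-low cells, with no effect shared within a mouse, so the recovery in the real data may differ. No count model was used, since cells were deposited as CPM. Named were the 6 genes, up to 3 genes per list with the smallest adjusted p in a comparison, and the 3 genes nearest each member. Atp1b3 and Gfap were named for their roles, with values known. A few genes that this rule names are not reported here. The 6 genes and the lists were chosen with earlier results of these data known. Alternatives covered the pseudocount, the low-value filter, the averaging of cells, the class call, plates, cell minimums, the Gfap threshold and each mouse left out.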

Additional observations from a re-analysis of the deposited data

Results flagged for a closer look

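Oligodendrocyte-like cells of MB/HB, 11 in all and too few for any comparison, held reads of the 6 genes. Aqp4 was read in 36.364% of them, Slc4a4 in 36.364%, Atp1b2 in 45.455%, Mlc1 in 36.364%, Hepacam in 72.727% and Dag1 in 45.455%. They are listed because data outside the comparisons held a signal above the 3 cells that a count of 0 allows, which is no test of a level. Of the 11 cells, 5 carried RNA of another class, and the part of those cells in these shares was not tested.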

How the results depend on the processing

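A read of Dag1 was found in 68.1% of VISp astrocytes and 2 mice carry every CBX value, so small changes could go unseen. The cause of each shift below was not tested. Sets of shared plates, equal cell numbers and leaving out neuron mice were added after seeing the data. CBX against VISp had 422 calls (48.8% higher). It had 960 with logs averaged over cells (87.2% higher), 252 on the 3 plates with all 3 tissues, 238 on 2 of them (31.1% higher), 147 on the run of 4 plates (32% higher) and 198 to 471 without 1 mouse. MB/HB against VISp had 428 calls (215 higher), 260 on the 3 plates (22.3% higher), 470 on 2 of them (17% higher), 191 on the run of 4 plates and 323 to 445 without 1 mouse. CBX against MB/HB had 355 calls (44.5% higher), 1057 with logs averaged (87.4% higher), 204 on the 3 plates, 311 on 2 of them (62.1% higher), 138 on the run of 4 plates (29.7% higher) and 138 to 377 without 1 mouse. Gfap-high against Gfap-low cells had 0 calls, 3 with no replicate block, 2 with at least 3 cells of each kind and 0 to 1 without 1 mouse, the 1 call coming without the GFAP promoter mouse that had the most Gfap. Without that block on the mouse none of the 6 genes passed either. Of values that never passed, Hepacam in CBX against VISp turned positive with logs averaged (0.22), the class called per cell (0.018), AB plates or their prefix as a covariate (0.043), at least 20 cells (0.0071), Gfap-low cells (0.13), the 3 plates (0.19) and the other plate sets (0.177 each), and ran from -0.031 to 0.024 without 1 mouse. Dag1 in CBX against VISp turned negative in Gfap-low cells (-0.043) and on the 2 plates and the run of 4 (-0.028 and -0.012), and ran from -0.0092 to 0.10 without 1 mouse. Hepacam in MB/HB against VISp was 0.0064 on the 3 plates. On the 2 plates Dag1 in MB/HB against VISp was -0.58, Slc4a4 in CBX against MB/HB 0.20 and Dag1 there 0.55, or 0.19 on the 3 plates and 0.63 with logs averaged. For Gfap, Slc4a4 was 0.072 with logs averaged, 0.022 without cells with Fos and 0.025 with equal cell numbers, and Dag1 was -0.059 with 1 threshold, -0.33 with at least 3 cells and -0.24 without cells with Fos. Of the counts of calls under the alternatives, 157 stayed within 1.5 times of the main count. No alternative for a fitted model was left out.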

Other observations

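Of 14 transporters, channels and carbonic anhydrases of ion, pH and volume control, 1 was higher in MB/HB than in VISp astrocytes (Kcnj10) and 1 lower in CBX than in VISp. Over all genes 11.8% were called in MB/HB against VISp and 11.6% in CBX against VISp. The listed gene lower in CBX was Car2, carbonic anhydrase 2, which makes the bicarbonate that Slc4a4 carries. Car2 had 793 to 1254 CPM in VISp, 692 to 1216 in MB/HB and 146 and 239 in the 2 CBX mice, with the CBX values below all others (log2 difference from VISp -2.45, SE 0.18, limma adjusted p = 9.9e-12). CBX astrocytes thus had more Slc4a4 and less Car2 than VISp astrocytes, while in MB/HB Car2 did not pass (-0.13, adjusted p = 0.613). Of 3 other aquaporin genes 2 were measured, and Aqp11 was lower in MB/HB than in VISp (-2.08, SE 0.51, limma adjusted p = 0.00499), at 0 to 37.6 CPM against 20.03 to 65.1. That call was lost without 1 of the MB/HB mice (-0.95, adjusted p = 0.111), in Gfap-low cells (-1.82, adjusted p = 0.0579), on the 3 plates with all 3 tissues (-2.29, adjusted p = 0.229) and on the run of 4 plates (-2.80, adjusted p = 0.0716).

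Of 8 genes that rise in reactive astrocytes, Gfap among them, 2 were higher in CBX than in VISp and 1 was lower in MB/HB. In CBX against VISp the median log2 difference of the 8 was -0.17, with 3 of them above 0. Gfap itself stood at -0.27 there (limma adjusted p = 0.889). Over all genes 11.6% were called in CBX against VISp and 11.8% in MB/HB against VISp. Vim, the intermediate filament gene vimentin, had 829 and 1017 CPM in the CBX mice against 9.55 to 71.8 in VISp (log2 difference 4.82, SE 0.87, limma adjusted p = 0.000143), and S100a6 167 and 182 against 33.1 to 88.1 (1.62, SE 0.36, limma adjusted p = 0.00164). S100a6 was lower in MB/HB (-1.25, limma adjusted p = 0.00101). That call was lost in Gfap-low cells (-1.10, adjusted p = 0.053), on the 3 plates with all 3 tissues (-0.67, adjusted p = 0.403) and on the run of 4 plates (-1.18, adjusted p = 0.126), and the CBX call was lost on the latter (1.69, adjusted p = 0.183) and without the first CBX mouse (1.56, adjusted p = 0.066). Of 6 immediate early genes, Ccn1 was lower than in VISp in both MB/HB (-2.82, limma adjusted p = 0.00757) and CBX (-5.16, limma adjusted p = 0.000284), and the other 5 did not pass.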
